A study of Mus musculus with 5 samples.

Results

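The genes of endocytic uptake Cubn, Amn, Lrp2, Dab2, Gif, Tcn2 and Fcgrt, were read in the colon of mouse embryos labelled as null for HNF4, a nuclear receptor of the gut epithelium, and of controls. The genes were chosen by name after values of this comparison had been seen, and all probe sets that the array annotation pairs with 1 of these symbols alone were taken. This gave 11 probe sets of the 22626 tested, and 7 genes of 12393 with a symbol of their own. Gif, whose current RefSeq symbol is Cblif, was matched as a RefSeq synonym of that symbol. Gene expression was measured in whole colon at stage E18.5 with 1 array per sample. The null group held 3 samples (null_59, null_60 and null_426) of genotype HNF4LoxP/LoxP FoxA3Cre. The control group held 2 samples (CONTROL_406 and CONTROL_421) of genotype HNF4LoxP/+ FoxA3Cre. Every embryo therefore carried the Cre transgene, named for the endodermal factor gene Foxa3, and at least 1 floxed allele, and no group was free of either.

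Fetal and neonatal enterocytes take up intact protein and vitamins from the lumen by receptor-mediated endocytosis, before the gut digests protein fully. Cubilin (Cubn), a large extracellular receptor with no membrane span, is held at the apical surface by amnionless (Amn), and megalin (Lrp2) acts beside them. The adaptor Dab2 links such receptors to clathrin coats. Gastric intrinsic factor (Gif) carries cobalamin, vitamin B12, to cubilin, transcobalamin (Tcn2) carries it onward in plasma, and the neonatal Fc receptor (Fcgrt) moves immunoglobulin G across the epithelium.

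The data showed lower values in HNF4 null colons for the cubilin and amnionless pair and overlapping or slightly higher values for the other 5 genes. Cubn was dim and read higher in CONTROL_406 than in CONTROL_421. Amn read higher in CONTROL_421, and without that array its difference, null minus control, was -0.26 on the log2 scale. All 3 probe sets of Cubn and Amn had every null array below both controls, 2 of the 3 probe sets of Dab2 had every null array above both, and the groups overlapped in the other 6. None of the 11 probe sets passed limma's threshold of an adjusted p under 0.05, which 0.124% of all probe sets passed. At an unadjusted p under 0.05 the count was 3 of 11, all lower in null colons, and 4.33% of all probe sets were lower at that level. The null arrays lay wholly below the controls in 9.64% of all probe sets and wholly above them in 14.6%. Since the 7 genes were proposed with these values known, the counts are descriptions.

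**Figure D1:**
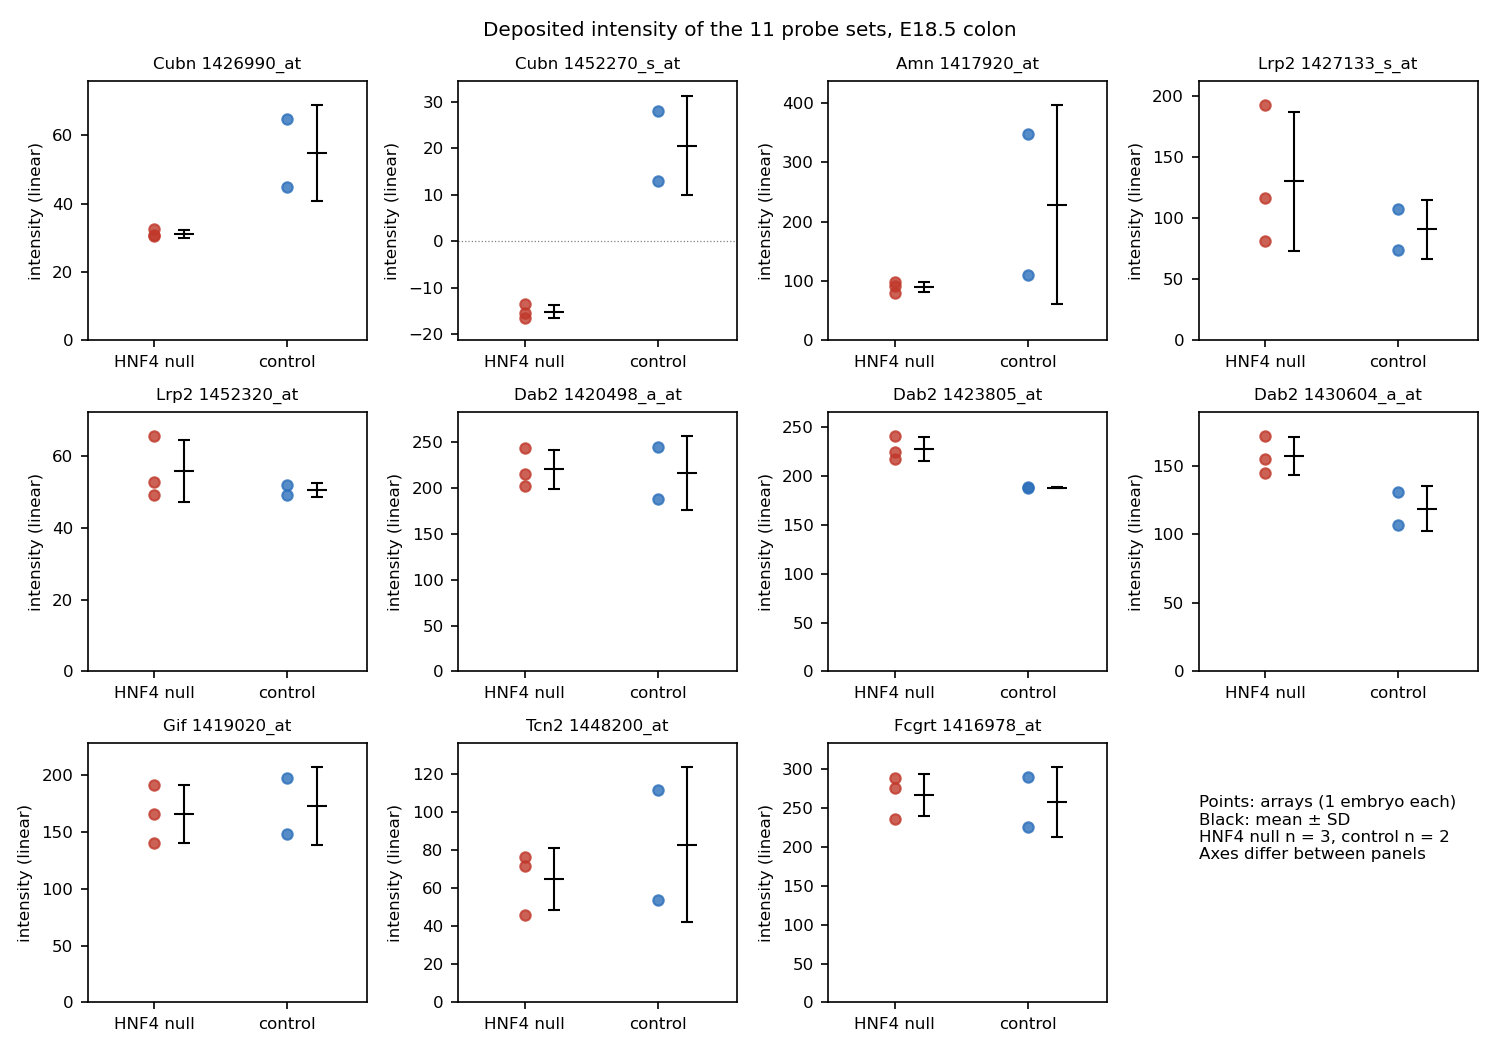
Deposited intensity on a linear scale (y axis) in each array, for the 11 probe sets in panels with separate axes. Points are arrays, red for 3 HNF4 null and blue for 2 control colons, and black marks give mean ± SD; the Cubn panels show both controls above all 3 nulls, and the Amn panel shows CONTROL_421 far above the other 4 arrays.

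The stretches of 250 bases before the start sites of the 3 apical receptor genes are shown because Cubn and Amn had lower values in null colons and Lrp2 did not. They come from RefSeq (GRCm38.p6), and stretches of 6 of the 7 genes, all but Tcn2, were used here. That of Cubn lies at chr2:13491877-13492126 (minus strand), that of Amn at chr12:111270846-111271095 (plus strand) and that of Lrp2 at chr2:69586030-69586279 (minus strand). Each reads 5′ to 3′ toward the gene, and capitals mark a match to a searched motif.
Cubn: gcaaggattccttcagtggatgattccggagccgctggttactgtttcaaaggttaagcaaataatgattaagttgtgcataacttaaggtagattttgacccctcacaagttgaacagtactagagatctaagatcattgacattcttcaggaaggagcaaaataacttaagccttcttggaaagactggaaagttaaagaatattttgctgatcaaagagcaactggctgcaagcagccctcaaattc
Amn: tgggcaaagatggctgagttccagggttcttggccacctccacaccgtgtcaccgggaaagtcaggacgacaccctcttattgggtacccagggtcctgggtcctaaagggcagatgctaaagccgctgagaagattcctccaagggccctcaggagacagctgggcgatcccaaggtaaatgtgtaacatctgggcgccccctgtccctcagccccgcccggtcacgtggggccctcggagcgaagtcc
Lrp2: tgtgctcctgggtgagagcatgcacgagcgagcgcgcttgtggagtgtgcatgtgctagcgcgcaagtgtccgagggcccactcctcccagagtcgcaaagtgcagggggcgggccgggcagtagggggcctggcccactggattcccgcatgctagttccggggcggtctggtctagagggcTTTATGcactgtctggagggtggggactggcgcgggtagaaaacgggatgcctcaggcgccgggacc
The letters searched, on both strands, were the HNF4 motif CAAAGTCCA, the related nuclear receptor motif CAAAGGTCA, GTTAAT as 1 arm of the HNF1 motif, and TTTATG for CDX factors. They occur in 0.384%, 0.426%, 6.43% and 10.8% of the 32851 RefSeq stretches of the same length, and the first pair share letters. The match in the 3 stretches shown was TTTATG before Lrp2, 67 bases before the start site. Of the others, the stretch before the second start site of Dab2 held GTTAAT, and those of Gif and Fcgrt held no match. A match describes the letters and is not a measured site.

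Cubn was measured by 2 probe sets, both dim. Probe set 1426990_at read 30.7 in null_59, 32.5 in null_60 and 30.5 in null_426, against 64.8 in CONTROL_406 and 44.8 in CONTROL_421. Intensities below follow this order of arrays. The nulls were close to each other and below both controls, at 31.2 ± 1.13 (SD, n = 3) against 54.8 ± 14.1 (SD, n = 2). The difference on the log2(intensity + 16) scale, null minus control, was -0.66 ± 0.17 (SE, 95% interval -1.04 to -0.28, limma adjusted p = 0.420). It lay between -0.80 and -0.52 with any 1 array left out, and at -0.89 with a pseudocount of 1 and -0.36 with one of 64. Only 13.3% of probe sets were as dim or dimmer on average, against a median of 131.9 over all probe sets.

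The second Cubn probe set, 1452270_s_at, read -13.5, -15.4 and -16.4 in the null arrays and 28.1 and 13.0 in the controls. All 3 null values were below 0 after the subtraction made before deposit, so they give no level and no fold is stated. With values below 0 set to 0, the fitted difference was -1.21 ± 0.18 (SE, limma adjusted p = 0.0567), just outside the threshold. This setting left the 3 null values nearly equal after normalisation, at 4, 4.0051 and 4 on the log2 scale, so little of their spread entered the fit. The value moved to -4.42 (adjusted p = 0.0114) with a pseudocount of 1 and to -0.42 (adjusted p = 0.5004) with one of 64, and with array weights it was -1.21 (adjusted p = 0.0283). The direction was common to all settings that gave a value.

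Amn, by probe set 1417920_at, read 80.7, 92.3 and 98.0 in the nulls, 110.1 in CONTROL_406 and 347.6 in CONTROL_421. The nulls were close to each other, CONTROL_406 lay just above them, and CONTROL_421 stood 2.94-fold above the next array after normalisation. Group means were 90.3 ± 8.82 (SD, n = 3) and 229 ± 168 (SD, n = 2). The difference was -1.04 ± 0.37 (SE, 95% interval -1.87 to -0.22, limma adjusted p = 0.615). Without CONTROL_421 it was -0.26 (adjusted p = 0.978), and without CONTROL_406 it was -1.81 (adjusted p = 0.0167), so the size of the Amn difference was set by 1 control array. CONTROL_421 also differed from the other arrays in its Gapdh control probe sets, where 3′ over 5′ signal was 1.47 against 0.767 to 0.895. Of 13791 probe sets with a mean intensity of 100 or more, 22 stood at least 2-fold above every other array in CONTROL_421, against 0 to 4 in the other arrays, and 71 stood at least 2-fold below every other array, against 2 to 9. The part of this array's quality in the Amn value was not tested.

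The probe sets most like Amn over the 5 arrays belonged to Gdnf, Pkp1, Zfp865, Fank1 and Masp1, with Pearson correlations from 0.965 to 0.988. They were drawn from 410 probe sets of other genes with a mean of 100 or more and an SD of at least 0.5 on the log2 scale, and 11 of these correlated above 0.95. Each shared with Amn a high value in CONTROL_421, between 218 and 343, while their other 4 arrays lay between 65.0 and 131. Gdnf, a growth factor of enteric neurons, read 249.6 in CONTROL_421 and 71.4 in CONTROL_406. With 5 arrays of which 1 is high, these correlations describe that array.

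Lrp2, megalin, showed no common direction across arrays. Its brighter probe set 1427133_s_at read 116.7, 81.1 and 193 in the nulls and 73.8 and 107.8 in the controls, so null_426 was highest and the groups overlapped. The difference was 0.36 ± 0.30 (SE, 95% interval -0.32 to 1.04, limma adjusted p = 0.814), and it was 0.071 without null_426, 0.090 without CONTROL_406, 0.61 without null_60 and 0.62 without CONTROL_421. Its dimmer probe set 1452320_at read 52.8, 49.2 and 65.5 against 49.0 and 51.9. That difference was 0.024 ± 0.17 (SE, 95% interval -0.35 to 0.40, limma adjusted p = 0.981). Both probe sets of Lrp2 were highest in null_426, and neither followed the lower values of Cubn and Amn.

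Dab2, the clathrin adaptor, was measured by 3 probe sets. Their differences were all above 0 with 95% intervals that overlapped, but not all of them separated the groups. Probe set 1423805_at read 218, 225 and 241 in the nulls and 188.5 and 188.1 in the controls, with every null above both controls. Its difference was 0.24 ± 0.16 (SE, 95% interval -0.11 to 0.60, limma adjusted p = 0.780). Probe set 1430604_a_at read 155, 144 and 172 against 130.7 and 107.0, again with no overlap. Its difference was 0.32 ± 0.17 (SE, 95% interval -0.051 to 0.69, limma adjusted p = 0.735). Probe set 1420498_a_at, the brightest on average, read 244, 215 and 202 against 245 and 188.1, where CONTROL_406 was highest and the groups overlapped. Its difference was 0.020 ± 0.18 (SE, 95% interval -0.38 to 0.42, limma adjusted p = 0.986), and its sign turned with median centring (-0.015). Probe sets whose names end in _a_at or _s_at can read several transcripts. Among the members these were 1420498_a_at and 1430604_a_at of Dab2, 1452270_s_at of Cubn and 1427133_s_at of Lrp2. Which transcripts each one reads was not analysed here.

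**Figure D2:**
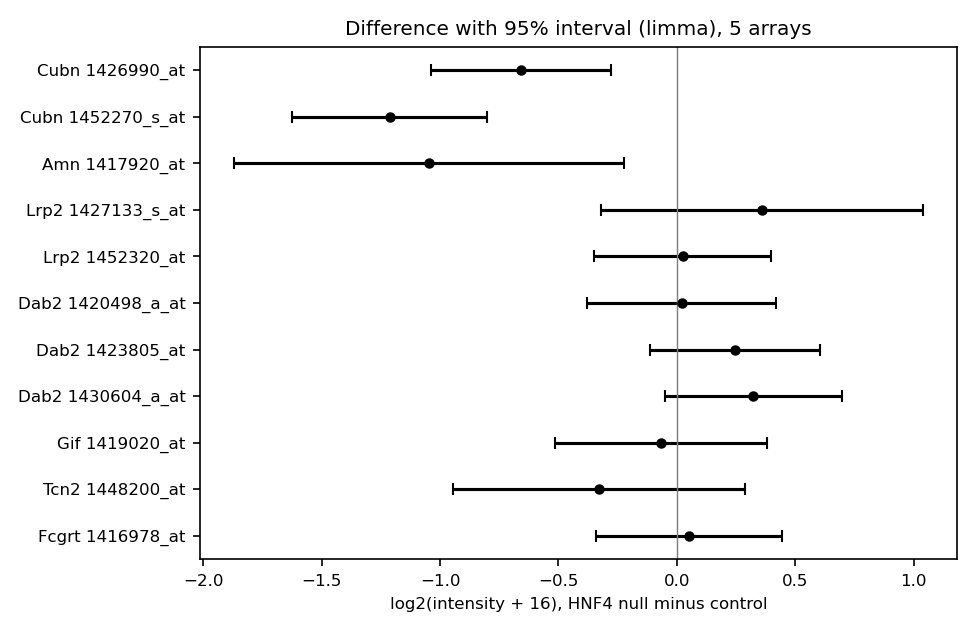
Difference in log2(intensity + 16), HNF4 null minus control (x axis), for each of the 11 probe sets (y axis), from the fit over 5 arrays. Points are limma estimates and bars are 95% intervals; both Cubn intervals and the Amn interval lie below 0, and the other 8 include 0.

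The cobalamin carriers did not separate the groups. Gif, by 1419020_at, read 166, 141 and 191 in the nulls and 148.5 and 197 in the controls, and its values interleaved. The difference was -0.067 ± 0.20 (SE, 95% interval -0.51 to 0.38, limma adjusted p = 0.951), and it turned to 0.14 without CONTROL_421 and 0.039 without null_60. Tcn2, by 1448200_at, read 71.8, 76.3 and 46.0 against 111.6 and 53.9, with CONTROL_406 highest and null_426 lowest. The difference was -0.33 ± 0.27 (SE, 95% interval -0.95 to 0.29, limma adjusted p = 0.814), and it became 0.048 without CONTROL_406, -0.70 without CONTROL_421 and -0.12 without null_426.

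Fcgrt, the neonatal Fc receptor, read 275, 288 and 236 in the nulls and 289.5 and 226 in the controls by 1416978_at. The arrays of both groups covered the same range, with means of 267 ± 27.1 (SD, n = 3) and 258 ± 45.0 (SD, n = 2). The difference was 0.050 ± 0.17 (SE, 95% interval -0.34 to 0.44, limma adjusted p = 0.960). Its light chain partner B2m, chosen after its value was seen, differed by 0.19 (adjusted p = 0.880). When the probe sets of each of the 7 genes were averaged, the differences ran from -1.04 for Amn and -0.94 for Cubn to 0.20 for Dab2, and 0 of the 7 genes passed (smallest adjusted p = 0.0915, for Cubn).

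**Figure D3:**
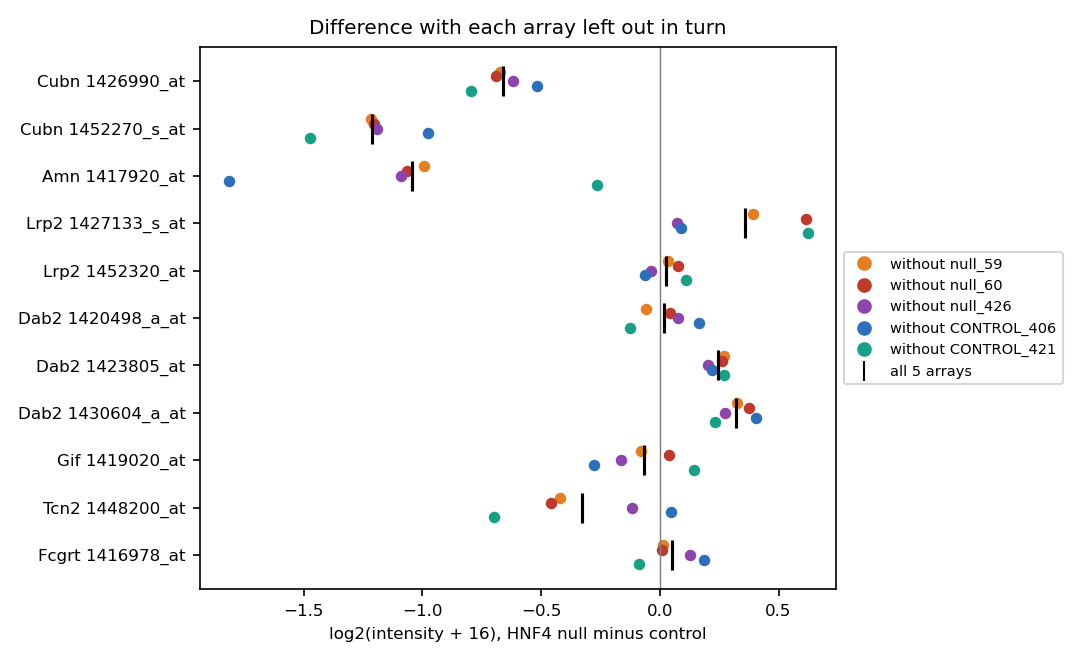
Difference in log2(intensity + 16), HNF4 null minus control (x axis), of each probe set (y axis) with all 5 arrays (black line) and with each array left out (coloured points). Both Cubn probe sets stay below 0 in all 5 fits, Amn moves from -1.81 to -0.26 with the control array left out, and 5 probe sets cross 0.

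Whole colon RNA was measured, so fewer cells of a type and less RNA per cell cannot be told apart in any of these values. Of 16 measured enterocyte markers 13 were lower in the nulls, like Cubn and Amn, and Krt18, Krt19 and Cldn7 were the 3 above 0. By deposited values 11 had all nulls below both controls, of which Krt8 overlapped after normalisation, and 3 passed the threshold (Cdhr5, Muc3 and Mep1b). Over all probe sets 9.64% had all nulls below both controls, and 0.137% of all genes, by their brightest probe set, passed. The summed intensity of the 16 was 11790 to 15200 in null arrays, 17200 in CONTROL_406 and 16260 in CONTROL_421. The keratin genes Krt8 and Krt19 were the brightest in this sum. Single markers differed between CONTROL_406 and CONTROL_421 in both directions, as in Cdhr5 (536 and 767.6) and Slc15a1 (284.4 and 89.0). The median difference of the 16 was -0.71. The Cubn difference by 1426990_at was within the spread of these markers, 10 of which were more negative. That of Amn was exceeded by 4, namely Cdhr5, Muc3, Slc15a1 and Mep1b. The same genes exceeded 1452270_s_at of Cubn (-1.21), whose null values were below 0. The log2(intensity + 16) scale understates differences of dim probe sets, so these ranks do not set Cubn evenly beside brighter markers. None of the 16 was at 0 in any array. The part of enterocyte content in the Cubn and Amn values was not tested.

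Cubn, Amn and Lrp2 are best known from the kidney's proximal tubule. Summed intensities of 11 kidney markers were 2278, 2075 and 2727 in the nulls and 2197 and 2281 in the controls, and 0 of them passed. The highest sum was in null_426, the array in which both Lrp2 probe sets were highest. Of these markers, Slc22a12 (853.9), Slc22a8 (375.8), Kap (290.2), Slc5a2 (201), Slc34a1 (158.8), Slc12a1 (99.7) and Cdh16 (61.0) were highest in null_426. Pax8 (296.9) and Slc22a6 (205.9) were lowest there, and Nphs1 and Umod were neither. Sums of stomach markers (2183) and of liver and yolk sac markers (1299) were also highest in null_426. The part of kidney content in the Lrp2 values was not tested. Gif is a product of the stomach, and 10 stomach markers summed to 1921 to 2183 in null and 1983 to 2047 in control arrays, also with 0 past the threshold. Dab2, Tcn2 and Fcgrt are also expressed outside the epithelium. Macrophage markers summed to 1762 to 2066 in null and 2154 to 2180 in control arrays, with a median difference of -0.042. Of these 14 markers 1 passed the threshold (Lyve1), against 0.137% of all genes. Endothelial markers summed to 1744 to 2070 against 1736 to 1742 (0 of 10 passed, median 0.20), mesenchymal ones to 8165 to 11050 against 10120 to 11560 (0 of 9, median -0.034) and mesothelial ones to 869 to 1169 against 785 to 842 (0 of 4, median 0.37). The endothelial and mesothelial sums thus lay higher in the nulls, as did 2 of the Dab2 probe sets. The macrophage sums lay lower in the nulls, and the mesenchymal sums overlapped. Krt7, the brightest in the mesothelial sum, read 677, 796 and 474 in the nulls and 474 and 543 in the controls, with overlap. The endothelial sum of null_426 (1744) was barely above that of CONTROL_406 (1742). In the endothelial and mesothelial lists null_426 had the lowest sum of the nulls. Those 2 Dab2 probe sets were highest in null_426. The part of these cell types in the Dab2 values was not tested. No marker in these lists was at 0 on any array, and markers of liver and yolk sac (7 measured) summed to 1030 to 1299 against 1141 to 1242.

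Further lists covered the rest of the pathway, with each gene read by its brightest probe set. Of all 12393 genes read this way 0.137% passed the threshold, and the median difference was 0.021. At an unadjusted p under 0.05, 4.28% were lower and 2.62% higher. In each of the 7 lists 0 members passed limma's threshold.

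Among 14 measured partners of megalin and cubilin, 2 were lower and 0 higher at an unadjusted p under 0.05, with a median of 0.035. Myo6, the myosin that carries endocytic vesicles inward from the microvilli, read 161, 169 and 115 in the nulls and 220 and 217 in the controls, with all nulls lower (-0.56, adjusted p = 0.634). Its dimmer probe sets differed by -0.25 and -0.34. Slc9a3r1, the apical scaffold NHERF1, read 227, 289 and 188 against 345 and 308 (-0.47, adjusted p = 0.687). Its other 2 probe sets, at -0.54 and -0.52, also had all nulls below both controls. The sorting receptor gene Sorl1 differed by 0.21 (adjusted p = 0.802, or 0.14 with median centring) and by -0.029 at its dimmer probe set. Lrpap1, the chaperone of megalin, differed by -0.11 and was chosen after its value was seen.

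The 11 measured genes of cobalamin handling had a median of -0.037, with 0 in either direction at an unadjusted p under 0.05. Mcee, an epimerase that feeds the cobalamin-dependent mutase, differed by -0.30 (adjusted p = 0.764), by -0.14 without CONTROL_406 and by -0.45 without CONTROL_421. Cd320, the cellular receptor for transcobalamin, differed by -0.29 (adjusted p = 0.799), by 0.040 without CONTROL_421 and by -0.62 without CONTROL_406. Abcd4, which moves cobalamin out of the lysosome, differed by -0.26 (adjusted p = 0.801), by -0.0029 without CONTROL_421 and by -0.51 without CONTROL_406. The dimmer probe sets of Cd320 and Abcd4 differed by 0.12 and 0.18, so the probe sets of both genes disagreed in sign.

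Among 10 genes of immunoglobulin transport and Fc receptors 1 was lower and 1 higher at an unadjusted p under 0.05 (median 0.085). Fcgr3, a low-affinity immunoglobulin G receptor of leukocytes, read 36.8, 32.0 and 29.3 in the nulls and 54.1 and 52.8 in the controls (-0.60, adjusted p = 0.505). Fcer2a, the low-affinity immunoglobulin E receptor CD23, read 79.0, 69.2 and 91.2 against 47.8 and 57.9 (0.40, adjusted p = 0.699), and its dimmer probe set also had all nulls above both controls (0.18). With a pseudocount of 64 these values of Fcgr3 and Fcer2a were -0.33 and 0.25, and that of Fcer2a was 0.24 without CONTROL_406. Pigr, which carries polymeric immunoglobulin toward the lumen, differed by -0.50 (adjusted p = 0.759) at its brightest probe set and by -0.021 at the other. The former was -0.14 with array weights, -0.29 without CONTROL_421 and -0.79 without null_59.

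The clathrin coat and scission list had 18 measured members and a median of 0.072, with 0 lower and 1 higher at an unadjusted p under 0.05. That gene was the dynamin gene Dnm2, at 407, 401 and 560 in the nulls and 308 and 267 in the controls (0.65, adjusted p = 0.585). Its other 6 probe sets ran from -0.42 to 0.00017, so the probe sets of Dnm2 did not agree. The adaptor subunit gene Ap2b1 differed by 0.32 (adjusted p = 0.743) and the membrane-bending gene Bin1 by 0.33 (adjusted p = 0.759), against 0.051 and -0.10 at their dimmer probe sets. Bin1 was at 0.20 without null_59. Of 17 genes of endosome sorting and recycling 14 had a difference below 0 (median -0.13), with 2 of them at an unadjusted p under 0.05, while 5756 of all 12393 genes were below 0. The retromer gene Vps35 read 383, 531 and 329 against 719 and 593 (-0.62, adjusted p = 0.591), while its dimmer probe set differed by 0.27. Rab5a, a small GTPase of early endosomes, differed by -0.41 (adjusted p = 0.695), and Rab11fip5, of recycling endosomes, by -0.33 (adjusted p = 0.767, and -0.17 without null_426 or -0.19 with a pseudocount of 64).

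Of 24 lysosomal genes 2 were lower and 1 higher at an unadjusted p under 0.05 (median -0.014). Tpp1, a lysosomal peptidase, read 280, 322 and 241 in the nulls and 423.5 and 395.5 in the controls (-0.51, adjusted p = 0.602), and its dimmer probe set differed by -0.62 with the same separation. The cathepsin gene Ctsh differed by 0.55 (adjusted p = 0.591) and Ctsb by -0.41 (adjusted p = 0.699), with 2 of the other 3 Ctsb probe sets above 0. Of 6 measured genes of the suckling enterocyte list 1 was lower at an unadjusted p under 0.05 (median -0.18). This was Neu1, a lysosomal sialidase, at 267, 244 and 205 against 438 and 339 (-0.66, adjusted p = 0.493), with -0.042 and -0.33 at its dimmer probe sets. The galactosidase gene Glb1 differed by -0.49 (adjusted p = 0.716) and by -0.26 without CONTROL_406. The lactase gene Lct, at intensities of 7.78 to 19.7, differed by -0.24 (adjusted p = 0.814), with values from -0.059 (array weights) to -0.52 (pseudocount of 1) over the alternatives, -0.10 without null_60 and -0.39 without null_59. Prdm1, a transcriptional repressor that delays the switch from suckling to adult enterocytes, differed by 0.052 and was chosen after its value was seen.

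**Figure D4:**
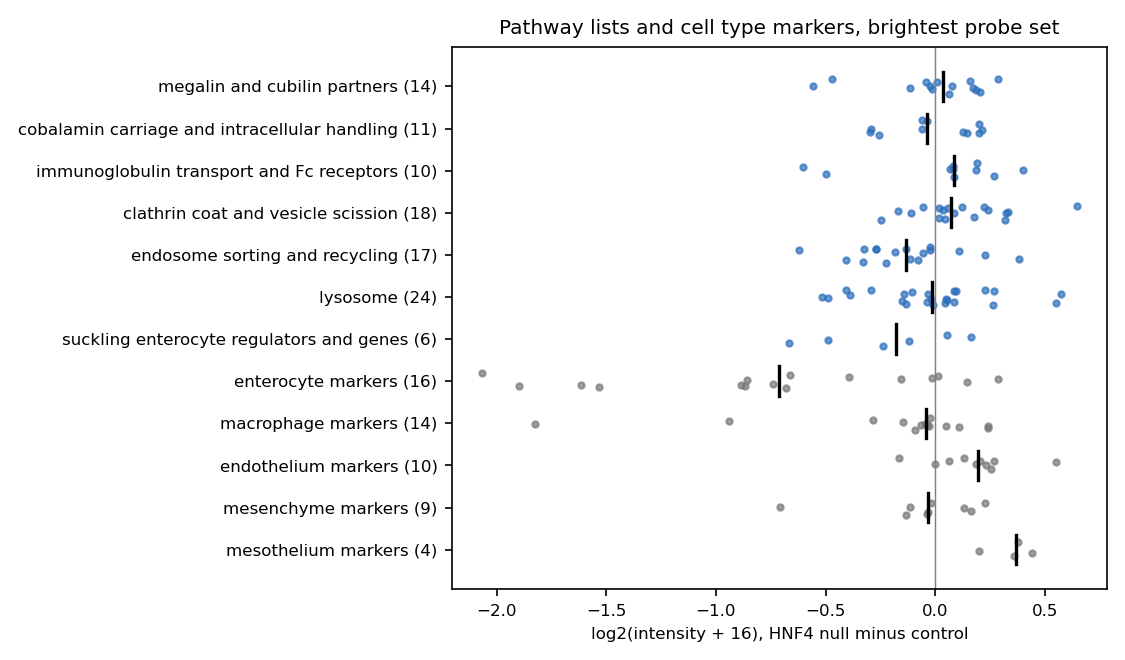
Difference in log2(intensity + 16), HNF4 null minus control (x axis), of each measured gene by its brightest probe set, for 7 pathway lists (blue) and 5 marker lists (grey) with the number of genes in brackets. Black lines are medians; those of the pathway lists lie between -0.18 and 0.085, and that of the enterocyte markers is -0.71.

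The medians of the 5 arrays lay between 123.7 and 135.2, and log2 values of array pairs correlated between 0.946 and 0.974 across probe sets, which are not independent replicates. Hnf4a, taken as the gene behind the label HNF4, was measured by 4 probe sets with differences from -0.55 to 0.19 and none past the threshold (smallest adjusted p = 0.603). Which exons were floxed is not stated in the labels, so these probe sets do not check the genotype. The labelled colon expressed the intestinal factor gene Cdx2 at 311 to 402 across the 5 arrays. Of 9 colon and hindgut markers 7 were lower in the nulls and 2 passed the threshold (Aqp8 and Atp12a), against 0.137% of all genes. The hindgut position gene Hoxb13 read 361, 341 and 179 in the nulls and 516 and 465 in the controls (-0.75, adjusted p = 0.643), and Hoxa13 was also lower in every null (-0.55, adjusted p = 0.617). Hoxd13 differed by -0.29, with overlap after normalisation, and Hoxd12 by 0.030, with overlap. The nulls of Hoxb13 and Hoxa13 thus lay below the controls, as those of Cubn and Amn did, and those of Hoxd12 did not. The part of hindgut position in the Cubn and Amn values was not tested. Of 8 markers of small intestine over colon 0 passed.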

How the data were processed

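The deposited values were linear intensities, 1 for each probe set on each array. Per the labels, Qiagen RNeasy mini kits gave the RNA, which was labelled with biotin by the standard Affymetrix method. Summarisation software, background step and scaling are not given in the sources used here, and values below 0 show that something had been subtracted.

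After removal of 64 control probe sets, values below 0 were set to 0, log2(intensity + 16) was taken and arrays were quantile normalised. The groups were compared by limma's lmFit and eBayes (version 3.58.1, R 4.3.3) without covariates, two-sided, with Benjamini and Hochberg's adjustment over all 22626 probe sets. Differences on this scale understate those of dim genes. Intensities given in the text are the deposited values. The labels do not say whether embryos shared a litter. The p-values set each group difference against the spread within groups, which limma moderates using all probe sets. The number of arrays, 5, limits the precision.

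Symbols came from a platform annotation updated through RefSeq gene IDs, with 20380 probe sets under 1 symbol, 691 under several and 1555 unnamed. Named were all member probe sets and, per list, the members past the threshold and otherwise the 3 with the smallest unadjusted p by the brightest probe set. The members and lists were chosen with earlier results of these data known. Alternatives were the scaling, the pseudocount, a filter on dim probe sets, the variance prior, array weights, averaging of probe sets per gene, each array left out and, added after the values were seen, keeping values below 0. The code was tested on simulated data.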

Additional observations from a re-analysis of the deposited data

How the results depend on the processing

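The count of member probe sets past the threshold was 0 in the main setting, 1 with array weights and 1 with a pseudocount of 1 (1452270_s_at of Cubn in both), and from 0 to 1 with an array left out (1417920_at of Amn without CONTROL_406). Over all probe sets the count was 28, against 45 with array weights, 14 with a pseudocount of 1 and 8 to 104 with an array left out (8 without null_60, 18 without CONTROL_421 and 104 without CONTROL_406). Both Cubn probe sets, Amn, the brighter probe set of Lrp2 and 1423805_at and 1430604_a_at of Dab2 kept their sign in every alternative that could be run for them. With an array left out, the sign turned for 1420498_a_at of Dab2 (-0.13 to 0.17), Fcgrt (-0.088 to 0.19), Gif (-0.28 to 0.14), 1452320_at of Lrp2 (-0.064 to 0.11), Tcn2 (-0.70 to 0.048) and, among list genes, Cd320 (-0.62 to 0.040). Median centring gave -0.015 for 1420498_a_at of Dab2. With values below 0 kept and a pseudocount of 64, 1452270_s_at of Cubn was at -2.13 (adjusted p = 0.683). The cause of these changes was not tested. The filter on dim probe sets removed 5 of the 11, both of Cubn and of Lrp2 and that of Tcn2, so it gave no value for them. No paired analysis was possible because the groups share no replicate number. Fits with a lone control array take its spread from the null arrays. Dim signal limits what can be said of Cubn, whose values lie near or below the level that the subtraction sets as 0.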
